A study of Mus musculus with 3 samples.

Results

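The genes described here are 35 interferon-stimulated genes (ISGs) in the chromatin of freshly isolated mouse hematopoietic stem cells (HSCs). They were taken as a list of names, with no threshold on a measured value, but with earlier results of these data known. All 35 were found in the annotation. Of these, 34 code for protein, and *Mx2* is annotated in this mouse genome as a polymorphic pseudogene, so it was kept among the 35 but left out of the reference set of 21670 protein-coding genes on chromosomes 1 to 19 and X. Each had at least 46 fragments at its start, so none was lost to a low-count filter. HSCs were sorted as LSKCD150+CD48−CD34− cells from the c-Kit-enriched bone marrow of wild-type female C57BL/6 mice (C57BL/6J in the study's methods) at 8 weeks of age, and profiled by DOGMA-seq, which reads chromatin accessibility (ATAC), RNA and antibody tags from the same cell. Cycling cells were not removed. The labels name no interferon treatment and no infection, and no source used here states how many mice were combined. There was 1 library of each kind from 1 preparation, so the design holds no second condition and no replicate. No test was therefore made, and the intervals given beside counts and shares are exact 95% intervals for counting error alone.

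The ATAC library held 42000180 fragments, of which 37191101 came from the 3108 called cells with more than 3000 fragments in peaks. Each of these cells had between 3977 and 194395 fragments, with a median of 11457, and a median of 3860.5 RNA molecules counted by unique molecular identifier (UMI). The starts of genes that mark other blood cells were checked in the same windows. None of the 4 T cell, 3 B cell, 4 neutrophil, 4 macrophage and dendritic cell or 2 NK cell genes was open by the rule given below, and of 3 erythroid genes only *Klf1* was, with 351 fragments. Among 8 HSC genes 6 were open, where 59.1% of all protein-coding genes were, among them *Hlf* with 1846 and *Kit* with 1614 fragments. *Slamf1*, which encodes CD150, had 132, and *Ly6a*, which encodes Sca-1, had 52, although both proteins were used in the sort.

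Type I interferon binds the receptor made of IFNAR1 and IFNAR2, and the kinases JAK1 and TYK2 then activate the factor ISGF3, which contains STAT2 and IRF9. ISGF3 binds the interferon-stimulated response element (ISRE) near the start of its target genes. Interferon-γ acts at another element, the γ-activated site (GAS). HSCs are known to respond to interferon in bone marrow, where it can bring them out of quiescence, and stem cells are also known for expressing part of the ISG set without infection.

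The core of the ISRE was searched as GAAA, any 2 bases and GAAA, on either strand. It was present in the promoter, from 250 bases before to 50 bases after the start, of 15 of the 35 ISGs (42.9%) against 3.63% of all protein-coding genes. Searched over 1 kb on both sides it was present at 28 of 35 (22.8% of all genes), and the 7 without it were *Irf9*, *Cmpk2*, *Trim25*, *Ifit2*, *Ifi35*, *Ifi44* and *Xaf1*. Among the 15, 10 held the string at least 2 times, with 4 copies in each of *Rtp4* and *Zbp1* (overlapping copies counted). The GAS string TTCNNNGAA was present in the promoters of 6 ISGs (17.1%) and of 7.94% of all genes. These are matches of letters and not measured binding sites. Most of the stretches below were chosen because they lie near the densest point of cut ends within 1 kb of the start, so they are a selected set. At *Mx2* and *Parp9* the densest 1 kb was centered outside that window. The last ones were chosen because they belong to genes with few fragments or lie away from that point. Each is read on the strand of the gene in GRCm38 (RefSeq), with the string or its reverse complement in capitals.
*Isg15*, chr4:156200865-156200894, minus strand, from 66 bases before the start: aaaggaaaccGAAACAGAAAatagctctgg
*Ifit1*, chr19:34640775-34640804, plus strand, from 86 bases before the start: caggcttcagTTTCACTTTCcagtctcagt
*Usp18*, chr6:121245837-121245866, plus strand, from 59 bases before the start: ggatctagggGAAAACGAAAgcttggcggt
*Rtp4*, chr16:23609835-23609864, plus strand, from 74 bases before the start: gtgcaccttgGAAACCGAAActtaaagaca
*Ifi27*, chr12:103434123-103434152, plus strand, from 79 bases before the start: gagagctgggGAAATAGAAAcctatcttat
*Mx2*, chr16:97535134-97535163, plus strand, from 939 bases before the start: ccagagaaatGAAAGTGAAActaagtagga
*Oasl2*, chr5:114897459-114897488, plus strand, from 533 bases after the start: ctccctgcagTTTCACTTTCaattcttgtc
*Parp9*, chr16:35938962-35938991, plus strand, from 502 bases after the start: agaggcaaagTTTCAGTTTCgattccccag
*Psmb9*, chr17:34187688-34187717, minus strand, from 57 bases after the start: agaggaagaaGAAACCGAAAgccgacctcg
*Irf7*, chr7:141266090-141266119, minus strand, from 372 bases after the start: actgtttaggTTTCATTTTCctgagatgca
*Oas1a*, chr5:120907520-120907549, minus strand, from 18 bases before the start: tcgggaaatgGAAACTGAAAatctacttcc
*Ifit3*, chr19:34583397-34583426, plus strand, from 124 bases before the start: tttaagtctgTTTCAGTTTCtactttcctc

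Fragments with an end within 1 kb of the start of each gene were counted over all 3108 cells. Since every window has the same length, these counts can be set beside each other between genes. A window at the genome mean would hold 31.9 fragments. A start is called open here at 5 times this value or more, and closed at 2 times or less. By this rule 31 of the 35 ISGs were open, against 59.1% of all protein-coding genes, and 2 were closed, *Ifit3* and *Sp100*, against 34.2%. The other two, *Xaf1* and *Oas1a*, lay between. In terms of rank the ISGs were close to the middle of the genome. Their median fold over the genome mean was 14.9 against 10.5 for all genes, and their median percentile was 56.6, with an interquartile range from 48.4 to 69.1. None was in the bottom 25% of genes and 7 were in the top 25%. Between the 25 and 75 percentiles of all genes lay 16 to 1131 fragments, and 28 of the 35 ISGs fell in that range. Set against the flanks of the same start, 2 to 10 kb away on both sides, 27 ISGs were at 5 times or more (54.5% of all genes) and 3 at 2 times or less (33.3%). These 3 were *Isg15*, *Ifi27* and *Ifi35*, at 0.921, 0.735 and 0.964 times their flanks. Their flanks hold the starts of other genes, 2486 bp away at *Isg15*, 8393 bp at *Ifi27* and 6109 bp at *Ifi35*, and within their own windows 51.6%, 67.6% and 45.0% of cut ends lay within 100 bp of the summit. By this measure *Bst2* (2.25 times), *Ifit1* (4.40 times) and *Psmb8* (4.81 times) were not open either, whereas *Oas1a* (7.38 times) and *Xaf1* (14.0 times) were. *Ifit3* and *Sp100*, at 4.67 and 4.77 times, were not closed.

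**Figure D1:**
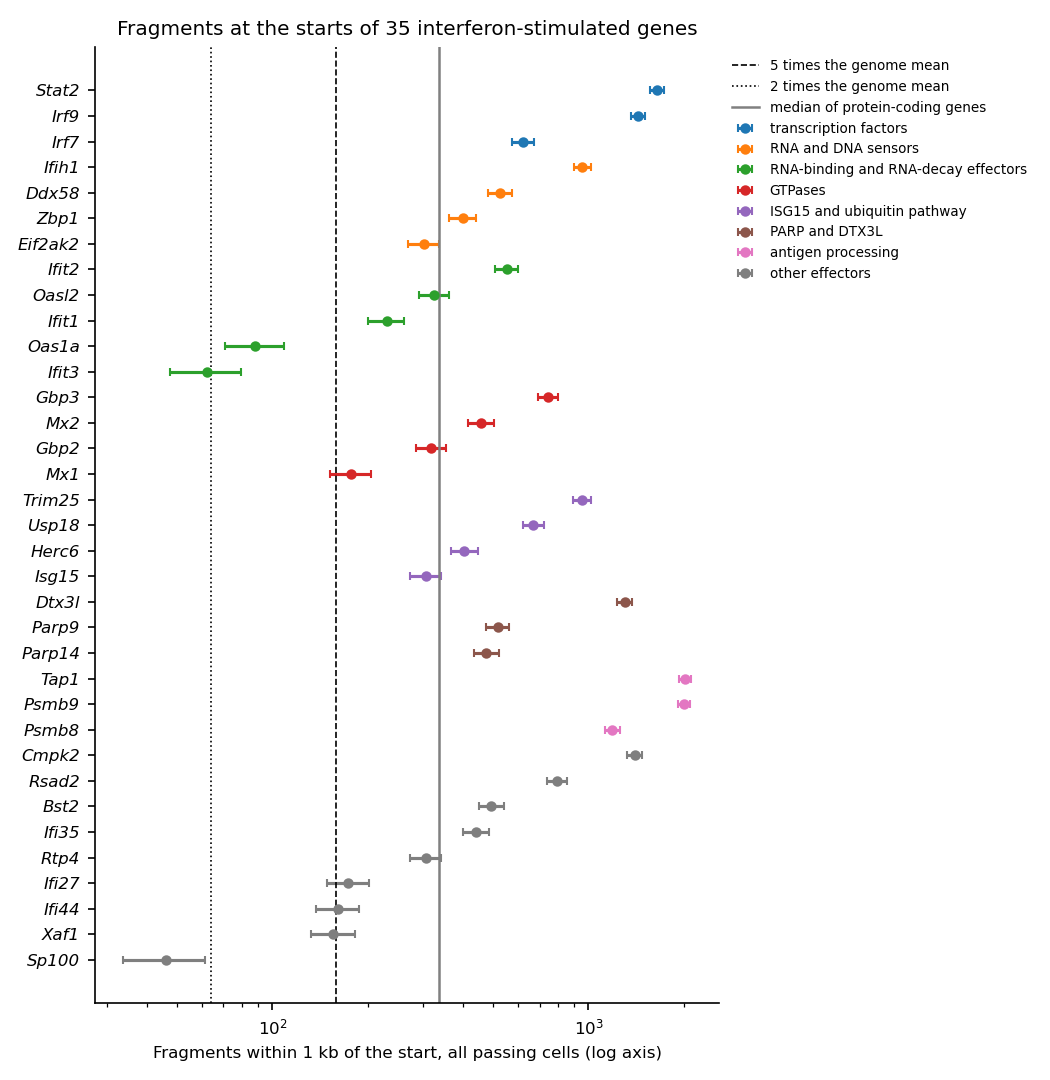
Fragments within 1 kb of the start of each of the 35 ISGs in 3108 cells (log axis), grouped by role, with exact 95% Poisson intervals as bars. Dashed and dotted lines mark 5 and 2 times the genome mean and the grey line the median of protein-coding genes, 336. *Tap1*, *Psmb9* and *Stat2* lie farthest to the right, and *Sp100*, *Ifit3* and *Oas1a* farthest to the left.

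Among the transcription factors, *Stat2* and *Irf9*, which encode subunits of ISGF3, were both in the top 25% of genes. *Stat2* (chr10:128270559-128292849) had 1648 fragments (interval, 1569 to 1730), 51.7 times the genome mean, and a fragment in 36.5% of cells. *Irf9* (chr14:55603571-55610030) had 1437 (1364 to 1513), or 45.1 times, and was covered in 31.2% of cells. *Irf7*, the factor that amplifies interferon production after induction, had 621 fragments, 19.5 times the genome mean. The 2 intervals of *Stat2* and *Irf9* did not overlap, and both lay above that of *Irf7*.

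The genes of antigen processing had the most fragments of any role when each window was counted whole. *Tap1* (chr17:34187553-34197225), a subunit of the transporter that brings peptides to MHC class I, had 2021 fragments (1934 to 2111), or 63.4 times the genome mean, and was covered in 42.1% of cells. *Psmb9* (chr17:34181987-34187764) encodes a catalytic subunit of the immunoproteasome and had 2009 (1922 to 2099), 63.0 times. These are not separate measurements. The starts of *Tap1* and *Psmb9* lie 211 bp apart on opposite strands, with overlapping 5′ ends, and nearly all fragments fell in both windows. When each fragment was given to the nearest protein-coding start, *Tap1* kept 1564 fragments (49.0 times the genome mean) and *Psmb9* 461 (14.5 times), and the role as a whole then ranked below the transcription factors. *Psmb8*, another immunoproteasome subunit on the far side of *Tap1*, had 1191 fragments or 37.3 times.

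*Parp9* and *Dtx3l*, whose products form a complex of an ADP-ribosyltransferase and a ubiquitin ligase, are also a pair on opposite strands that overlap at their 5′ ends, with starts 681 bp apart. The window of *Dtx3l* (chr16:35926511-35939151) had 1304 fragments (1234 to 1377), 40.9 times the genome mean, and that of *Parp9* had 516, 16.2 times. Assigned to the nearest start these became 35.2 and 6.30 times. The densest 1-kb bins of the 2 genes overlapped over most of their length. That of *Dtx3l* was centered 859 bp before its start and had 844 fragments, and that of *Parp9*, with 851, was centered 1499 bp after its start, in the first intron of the transcript used here. A second annotated start of *Parp9*, 541 bp downstream of the first, had 1292 fragments in its window. *Parp14*, a further ADP-ribosyltransferase on the same chromosome, had 475 fragments or 14.9 times.

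All 4 sensors of foreign nucleic acid were open, as were 59.1% of all protein-coding genes, and each held the ISRE core in its promoter, as did 3.63% of all. *Ifih1*, which encodes the RNA sensor MDA5, had 957 fragments and was covered in 23.8% of cells. *Ddx58*, which encodes RIG-I, had 526, *Zbp1*, a sensor of Z-form nucleic acid, had 400, and *Eif2ak2*, which encodes the RNA-activated kinase PKR, had 301. Of the genes acting on ISG15, a ubiquitin-like modifier, *Trim25* had 956 fragments, *Usp18*, which removes ISG15 and also restrains the interferon receptor, had 670, and *Herc6*, its main ligase in mice, had 405. *Isg15* itself had 306, at the 48.5 percentile. *Ifih1* and *Trim25* thus stood next to each other in the ranking with no difference beyond counting error.

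The effectors that bind or degrade viral RNA had the lowest median of the roles, 7.21 times the genome mean, and 3 of 5 were open, near the share of all protein-coding genes (59.1%). *Ifit2*, one of the IFIT proteins that bind viral RNA, had 552 fragments and *Oasl2* 325. *Ifit1* (chr19:34640871-34650009) had 230 fragments (201 to 262), 7.21 times the genome mean, and its start lies 128 bp from that of *Ifit1bl2* on the other strand. Given to the nearest start, *Ifit1* kept only 3.10 times and was no longer open. *Oas1a* (chr5:120896256-120907521), an enzyme that makes 2′-5′ oligoadenylate to activate RNase L, had 88 fragments (70.6 to 108), 2.76 times. *Ifit3* (chr19:34583531-34588731) had 62 (47.5 to 79.5), 1.94 times, and was covered in 1.67% of cells. The interval of *Ifit3* reached above the limit for a closed start and overlapped that of *Oas1a*.

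Among the GTPases, the guanylate-binding proteins *Gbp3* and *Gbp2* had 743 and 318 fragments, and the antiviral *Mx2* and *Mx1* had 458 and 177. Of the remaining effectors *Cmpk2* was highest, with 1400 fragments (1328 to 1475) or 43.9 times the genome mean at chr12:26469204-26479837. *Cmpk2* encodes a mitochondrial nucleotide kinase, and its neighbor *Rsad2*, which encodes the antiviral enzyme viperin, had 796. Their starts lie 12752 bp apart, so the windows shared nothing. *Bst2* (tetherin) had 493 fragments, *Ifi35* 441 and *Rtp4* 306. *Ifi27*, *Ifi44* and *Xaf1* had 174, 161 and 156, close to the limit for an open start. *Ifi27* (chr12:103434211-103440239) stood at 5.46 times (149 to 202 fragments). *Ifi44* (chr3:151730922-151749960) was just above it at 5.05 times (interval of the count, 137 to 188) and *Xaf1* (chr11:72301629-72313733) just below at 4.89 times (132 to 182). *Sp100*, a component of nuclear bodies, had the fewest, 46 (33.7 to 61.4), or 1.44 times.

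Counting error leaves most of this order unresolved. Of the 34 steps from 1 gene to the next in the order, only 6 separated intervals that did not overlap. These were the steps from *Psmb9* to *Stat2*, *Stat2* to *Irf9*, *Psmb8* to *Ifih1*, *Trim25* to *Rsad2*, *Eif2ak2* to *Ifit1* and *Xaf1* to *Oas1a*. For 28 ISGs the whole interval lay above the limit for an open start, and for 4, namely *Mx1*, *Ifi27*, *Ifi44* and *Xaf1*, it spanned the limit.

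The 3 ISGs with the fewest fragments were also the 3 whose windows were least unique in the genome. Reads that match several places cannot be placed with certainty, so the share of 50-base words in each window that occur elsewhere was counted. It was 60.9% at *Sp100*, 48.7% at *Ifit3* and 18.3% at *Oas1a*. In the other 32 ISGs the highest value was 10.0%, at *Mx1*, and the median of all 35 was 1.18%. Among other genes of the pathway *Ly6a* (45.0%), *Ifi203* (44.6%) and *Ifi204* (27.5%) had values of this kind, and had 52, 85 and 46 fragments, as did the interferon genes *Ifnl3* (43.0%), *Ifnl2* (39.8%) and *Ifna1* (27.5%), with 6, 14 and 5. Counts as low were also found in windows with little or no repeated sequence. *Ifng*, *Ifne* and *Nlrc5* had 14, 14 and 24 fragments with 0% repeated, and *Ifna4* had 4 with 3.38%. The part of repeated sequence in these low counts was not tested.

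**Figure D2:**
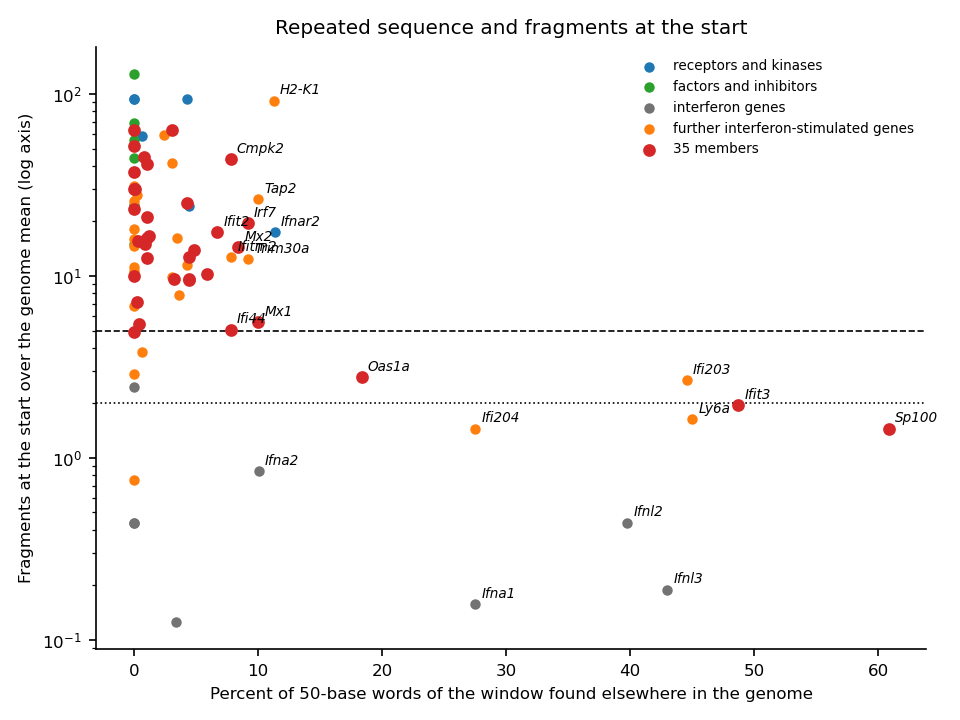
Fragments at the start over the genome mean (log axis) against the percent of 50-base words in the window that occur elsewhere in the genome, for the 35 ISGs and 4 lists of pathway genes, with names above 6%. *Sp100*, *Ifit3* and *Oas1a* have 60.9%, 48.7% and 18.3% and the fewest fragments of the 35.

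Over the whole gene body with 2 kb upstream, the ISGs were again near the middle, with a median percentile of 49.2 among genes of like length. There were 6 in the top 25% and 3 in the bottom 25%. The body percentile was below the promoter percentile in 25 of 35 ISGs, against 52.1% of all protein-coding genes, and above it in 10. The 2 percentiles rest on different reference sets, all genes for the start and genes of like length for the body. The largest gaps of the first kind were at *Herc6*, *Rtp4* and *Mx2*. *Herc6* (chr6:57581000-57664632) was at percentile 53.2 by its start and 21.8 by its body, *Rtp4* (chr16:23520291-23614222) at 48.5 and 24.9, and *Mx2* (chr16:97535308-97560900) at 55.8 and 32.4. *Rtp4* is measured here over 95.9 kb because 1 annotated transcript starts 89628 bp upstream of the main one, where the window held 23 fragments. Gaps of the other kind were largest at *Isg15*, *Irf7* and *Sp100*. *Isg15* (chr4:156199424-156200818) is a short gene, and the 367 fragments over its 3.40 kb, of which 83.4% were at the start, put it at percentile 85.3 of genes of like length. *Irf7* (chr7:141262706-141266481) was at 61.7 by its start and 74.7 by its body, and *Sp100* at 32.1 and 44.3.

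*Sp100* (chr1:85649988-85709998) had the smallest share of its fragments at its start. Its start window held 2.94% of the 1563 fragments over the body, whereas the median share over the 35 ISGs was 65.0%, and the next lowest were *Parp9* with 30.3% and *Rtp4* with 32.4%. By fragment midpoints a single 1-kb bin, chr1:85702988-85703987, held 986 fragments or 63.1% of those over the body. This bin lies 53437 bp downstream in the intron after exon 17 of the main transcript. A shorter annotated transcript starts there, and the window of this start had 1068 fragments, 33.5 times the genome mean. By the same rule that start was open. 

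**Figure D3:**
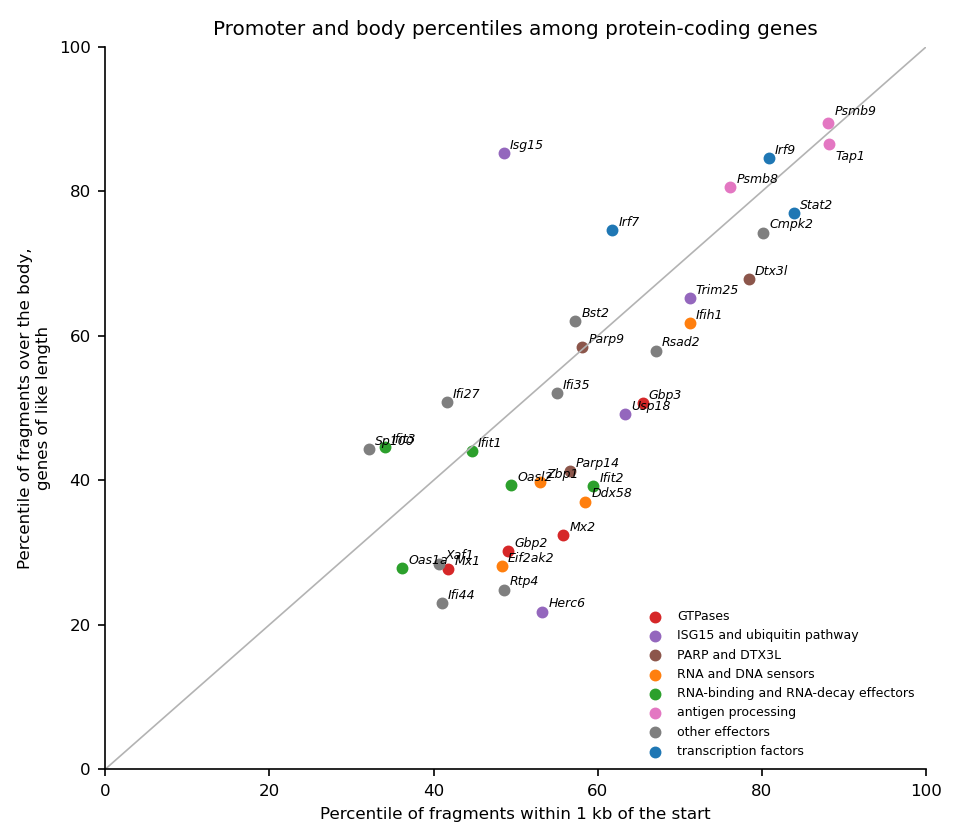
Percentile of each of the 35 ISGs by fragments over the body plus 2 kb upstream, among protein-coding genes of like length, against its percentile by fragments within 1 kb of the start. Points are genes colored by role and the grey line marks equal percentiles. *Isg15* lies farthest above the line and *Herc6* farthest below it.

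Fragment ends are the points where the transposase cut. On average over the ISGs they were densest 25 bp before the start, at 2.18 ends per base and gene, against 3.03 for all protein-coding genes at the same distance. The densest point of each gene (summit, over 101 bases) lay within 150 bp of the start in 23 of 30 open protein-coding ISGs, against 68.3% of all open genes, and more than 300 bp away in 7, against 18.6%. With *Mx2* the latter were *Psmb9*, whose summit is the same point as that of *Tap1*, upstream of the *Tap1* start, *Dtx3l* and *Parp9*, and *Gbp3*, *Gbp2*, *Oasl2*, *Mx2* and *Zbp1*. At *Gbp3* and *Gbp2* the summits lay 716 and 774 bp inside the gene. At *Mx2* and *Zbp1* they lay 935 and 938 bp upstream, at the edge of the window, and the densest 1 kb of both genes was centered beyond it, 1276 and 1188 bp upstream. Counts at these 2 starts therefore leave out part of the accessible region.

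**Figure D4:**
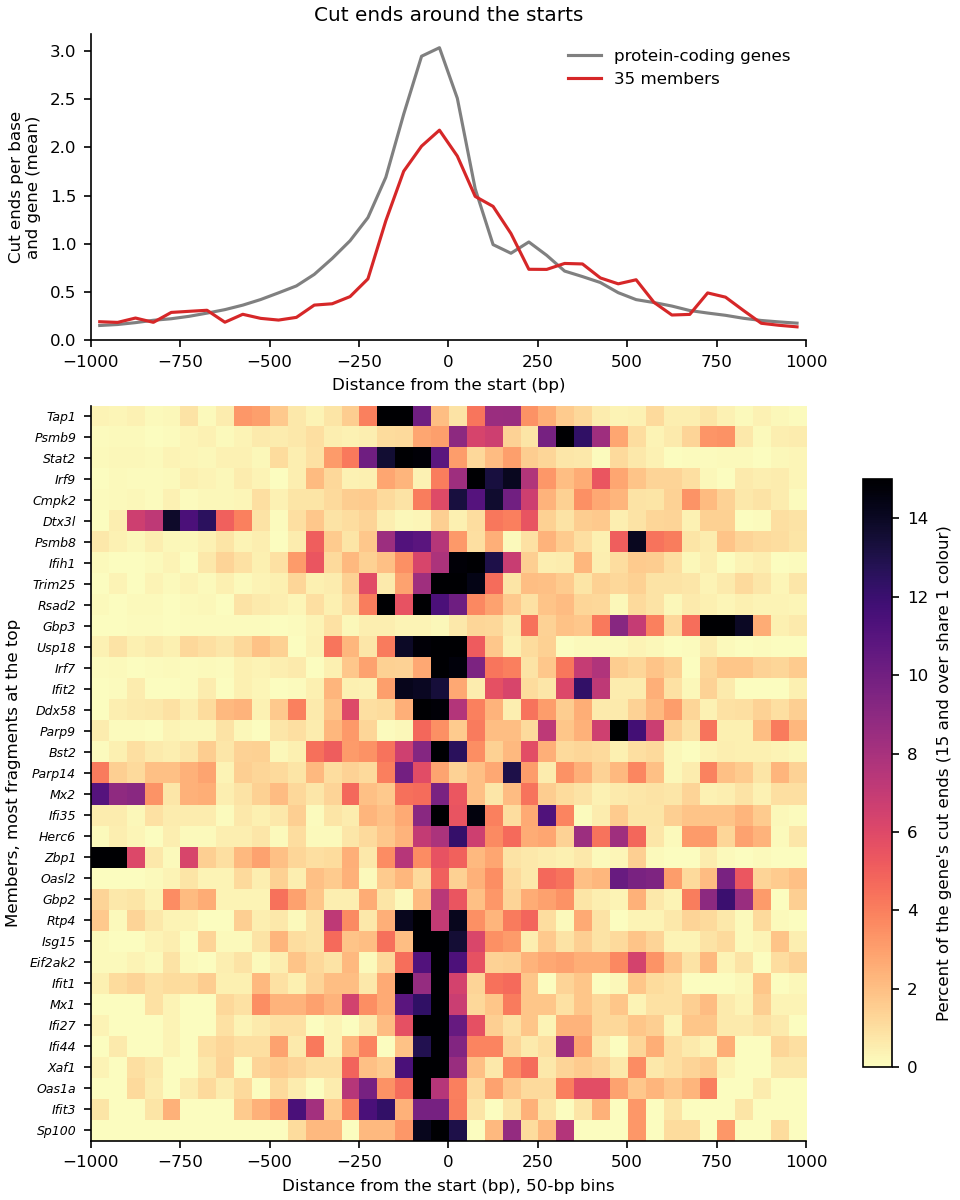
Cut ends around the start. Top, mean cut ends per base and gene in 50-bp bins for the 35 ISGs and for protein-coding genes. Bottom, each ISG by row from most to fewest fragments, with color as the percent of the cut ends of that gene in each bin. Most rows are darkest next to the start, and *Dtx3l*, *Gbp3*, *Zbp1* and *Mx2* are darkest well away from it.

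The ISRE core was then set against the summits. In 12 of the 24 open protein-coding ISGs with the string within 1 kb, it was no more than 100 bp from the summit, with a median distance of 150 bp. Among all 2656 open protein-coding genes with the string, these ISGs included, this was so for 8.17%, with a median of 569 bp. ISGs held the string in the promoter far more often than other genes, and most summits lie near the start. These shares therefore cannot tell closeness to the summit from closeness to the start. Where a gene held several copies, the one nearest the summit was used. The distance was 1 bp at *Mx2*, 7 bp at *Ifit1*, 10 bp at *Oasl2*, 13 bp at *Parp9*, 15 bp at *Isg15*, 28 bp at *Rtp4*, 29 bp at *Ifi27* and 32 bp at *Usp18*. For *Mx2*, *Oasl2* and *Parp9* the string lay 939, 533 and 502 bases from the annotated start. At *Mx2* and *Parp9* the densest 1 kb was centered outside the window, so these summits depend on where the window ends. The string of *Parp9* also lies in the window of *Dtx3l*, 953 bp from the summit found there. At *Irf7*, in contrast, the summit lay 14 bp after the start and the string 363 bp from it, and at *Psmb9* the distance was 296 bp. Both strings still lay at a lower peak of cut ends. At *Irf7* the 50-bp bins centered 375 and 425 bp after the start had 82 and 91 cut ends, against 18 at 475 bp. At *Psmb9* those at 25 and 75 bp had 356 and 250, against 31 at 225 bp. *Oas1a* and *Ifit3* held the string 55 and 72 bp from their summits, though with few cut ends behind these positions. These copies begin 24 and 158 bases before the start and are not the copies shown above.

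The promoters of the ISGs were poor in CpG. The 300 bases around the start held a median of 6 CpG against 13 in all genes. When genes were ranked by CpG and split into 3 classes, the lowest class (6 CpG or fewer) had 7778 protein-coding genes, of which 12.8% were open. In this class were 18 ISGs, of which 14 were open. Their median fold over the genome mean was 9.78, whereas that of the whole class was 0.220. In the middle class all 15 ISGs were open, where 85.0% of genes with the ISRE core and 74.7% of those without were. The remaining ISGs, *Psmb9* and *Stat2*, were in the CpG-rich class, in which over 95% of genes were open. Within the CpG-poor class, 6 of the 8 protein-coding ISGs with the ISRE core were open and so were 7 of the 9 without, while 19.3% and 12.4% of all genes of those kinds were. Other features that go with short CpG-poor promoters were not matched.

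**Figure D5:**
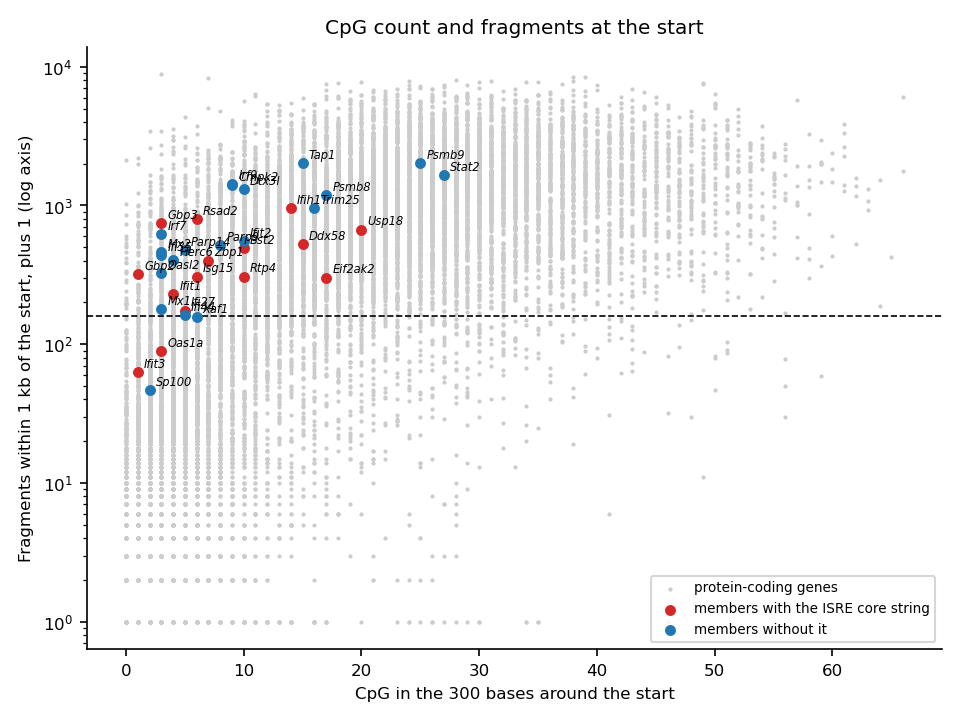
Fragments within 1 kb of the start, plus 1 (log axis), against the number of CpG in the 300 bases around the start. Grey points are protein-coding genes, red points ISGs with the ISRE core in those bases and blue points ISGs without it. The dashed line marks 5 times the genome mean. At 6 CpG or fewer, 14 of 18 ISGs lie above the line, where 12.8% of genes do.

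The starts of other genes of the pathway were counted in the same way, and their counts of open starts are to be read beside the 59.1% of all protein-coding genes. All 7 receptors and kinases were open, with a median of 58.9 times the genome mean, and *Ifnar1*, *Ifngr1* and *Jak2* had 2994, 2980 and 2978 fragments. *Ifnar2*, with 556, was the lowest of these. All 6 further factors and inhibitors counted were open too, from *Irf5* with 477 to *Socs1*, the feedback inhibitor of JAK kinases, with 4078. The promoters of these 2 lists were rich in CpG, with medians of 22 and 27.5 in 300 bases, and in the CpG-rich class over 95% of all genes were open. *Jak1*, *Ifngr1*, *Ifnar2*, *Irf3* and *Socs1*, with 14 to 18 CpG, fell in the middle class. There 85.0% of genes with the ISRE core and 74.7% of those without were open. None of 8 genes for interferons themselves was open and 7 were closed, among them *Ifng* with 14 fragments and *Ifna4* with 4. *Ifnb1* had 78, 2.45 times the genome mean. Of 25 further ISGs that are not among the 35, 19 were open and 3 closed, with a median of 12.3 times. *H2-K1* and *B2m* had the most, 2926 and 1884, and *Nlrc5*, *Ifi204* and *Ly6a* were closed.

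Fragments differ in length, and long ones can span a nucleosome. Those as long as the DNA wrapped around 1 nucleosome, up to 2 times that length, were 0.690 times as many as shorter ones at the median ISG, which was also the value for all genes. Single ISGs ranged widely around it. The ratio was 0.257 at *Stat2* and 0.272 at *Ifi27*, and 1.72 at *Parp14*. *Oas1a* and *Oasl2* had 1.40 and 1.39, the former from few fragments.

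In single cells the ISGs were sparse. After the overlapping windows of these 2 pairs were joined, the 33 distinct windows held 20166 fragments. A cell had a median of 6 of these fragments, up to 46, in a median of 5 windows, up to 22, and 41 cells had none. By gene, 7 ISGs had a fragment in more than 25% of cells and 6 in less than 5%. The number of cells with a fragment was 0.914 times that expected from the total count and the depth of each cell alone, at the median of the 27 ISGs with at least 300 fragments. The same ratio over all protein-coding genes with as many fragments was 0.913. The share of cells thus followed from the count and the depth to the same extent as in other genes.

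The summed count over the 33 windows varied between cells 1.54 times as much as Poisson counting at the depth of each cell would give. Of this, 1.28 came from counting and variation within single windows and 0.253 from windows varying together. Per fragment the excess over counting was 0.0827, beside 0.0792 for the receptors and kinases, 0.0878 for the further factors and inhibitors, 0.0818 for the HSC genes, 0.0550 for the 25 further ISGs and 0.0121 for all protein-coding genes summed. The last value is not comparable with the lists, since its 21670 windows hold a large part of the fragments from which depth is taken. With depth taken as promoter fragments the excess was 0.0731 for the ISGs, 0.0540 for the receptors and kinases, 0.0702 for the factors and inhibitors, 0.0671 for the HSC genes and 0.0480 for the further ISGs, so the order of the lists depended on the measure of depth. Single ISGs did not vary more than other genes, with a median of 1.27 for the 27 ISGs and 1.26 for 11214 protein-coding genes with at least 300 fragments. *Irf9* (1.47, percentile 98.6) and *Ifi35* (1.42, percentile 96.1) were highest. Correlations between windows after depth was taken into account were very small. Over 349 pairs of ISGs with separate windows the median Pearson r over cells was 0.0075, and 66.8% were above 0. For all pairs of genes with as many fragments the median was 0.0035 and 57.7% were above 0. With depth taken as promoter fragments the ISGs had a median of 0.0057 and 64.8% above 0, and all pairs -0.0005 and 49.8%. The highest pair was *Ifih1* and *Trim25*, with an r of 0.0754. In counts this sparse, values of this size describe the library only. All points share 1 library and its depth.

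The share of promoter fragments that fell at the ISGs was compared between cells ranked by depth and split into 4 classes of 777. By ATAC fragments it was 13.3 per 10000 (interval, 12.9 to 13.8) in the shallowest cells and 13.4 (13.1 to 13.7) in the deepest, while per 10000 of all fragments it was 6.37 in the shallowest and 5.80 in the deepest. By RNA UMIs it was 13.9 (13.5 to 14.2) in cells with the fewest and 13.1 (12.8 to 13.4) in those with the most. The intervals of all these shares are too narrow. Fragments in windows shared by neighboring genes were counted for each gene, and variation between cells beyond counting is left out. Whether the classes differ was not tested. When cells were ranked by the share of all fragments that fell in promoters, the share at the ISGs was 14.2 (13.9 to 14.6) in the lowest class. It was 13.3 and 12.8 in the classes between and 13.2 (12.8 to 13.5) in the highest, so it did not fall steadily. That denominator is part of the measure that ranks the cells. Per 10000 of all fragments the order was the other way, with 5.74 in the lowest class and 6.65 in the highest. As a share of promoter fragments, the last class was 0.945 times the first by RNA UMIs and 0.928 times by promoter share, and whether cells with more RNA differ in state or only in how well they were recovered was not tested.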

How the data were processed

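The ATAC library of sorted HSCs was analyzed (1 preparation, no replicate). Reads had been processed by the authors in Cell Ranger ARC 2.0.2 on mm10, which aligns them, collapses duplicates into fragments and calls cells. They deposited fragment positions with read counts, and counts of fragments and UMIs per barcode. These counts are not normalized. No source used here says whether fragment ends were shifted for the transposase. Another gene of the pathway is not reported here. RNA counts per gene were not analyzed here, and the antibody tag counts were not used here.

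Called cells (3757) with more than 3000 fragments in peaks were kept (3108), and doublets were not removed. No fragment ended beyond its GRCm38 chromosome. The start was that of the principal transcript in GENCODE M21. A fragment counted once per window if either end lay within 1 kb of the start. Body counts (gene plus 2 kb upstream) were ranked within 20 bins of length. A window at the genome mean was computed from all fragments and the bases of the assembly that are not N. Variation over cells was set against the fragments of each cell. Percentiles and shares are descriptions, since 1 library allows no test. The ISGs and pathway lists were chosen with earlier results of these data known. All 35 are named by role, and the 6 highest and 6 lowest by fragments and the 3 with the largest gap between promoter and body percentiles each way are given in full. Other transcripts' starts, CpG classes, summits and repeated words were looked at after the values were seen. Depth limits precision (a count of 301 has a 95% Poisson interval from 268 to 337), and intervals beside counts and shares cover counting error only. Counting and dispersion steps were tested on simulated data. Alternatives were other cell sets, window sizes, starts and ways of counting. The tools were Python 3.11.15, numpy 2.4.6, scipy 1.17.1, pandas 2.3.3 and, for figures, matplotlib 3.10.9.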

Additional observations from a re-analysis of the deposited data

How the results depend on the processing

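The number of open ISGs was 31 and stayed between 27 and 32 under every alternative run, the lowest against the flanks 2 to 10 kb away, where 54.5% of all genes were open. The number of closed ISGs was 2, and it was 1 in all called cells, 1 when a fragment was counted by its midpoint, 0 within 500 bp of the start, 3 at the first annotated start, 3 against the flanks and 0 without the 3 ISGs whose window is over 15% repeated. That last setting was added after the data were seen, and since both closed ISGs are among the 3 left out, it could give no other value. The 2 closed ISGs were *Ifit3*, whose interval spans the limit, and *Sp100*, whereas the 3 against the flanks were *Isg15*, *Ifi27* and *Ifi35*. The ISRE core was present at 15 ISGs, and at 28 when searched over 1 kb on both sides, where 22.8% of all genes held it. The median percentile by start stayed within 49.5 to 61.7 and that by body within 39.7 to 58.4 (95% order-statistic intervals over the 35 genes), and the dispersion within 1.46 to 1.61 (a normal approximation over cells), under every alternative run. The ratios between cell classes, as shares of promoter fragments, stayed within normal-approximation intervals for counting error. These intervals count shared fragments more than once and leave out variation between cells. No paired analysis was possible because each kind of library is 1 sample and no groups were compared. Depth limits the lowest genes most, since the intervals of *Oas1a*, *Ifit3* and *Sp100* are the widest beside their counts.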
